A study of Drosophila melanogaster with 6 samples.

Results

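Of 9 genes listed by FlyBase symbol as genes of germline stem cell differentiation, 8 were matched to a gene in the count tables: tut, bam, bgcn, mei-P26, Sxl, ovo, otu and stwl. The symbol snf-like matched no gene and has no value here. All 8 matched genes had enough counts to be tested, among 8110 tested genes of 17559 in the tables. The measurements come from 6 libraries of polyadenylated RNA from dissected Drosophila melanogaster ovaries, in a study of what a lower level of nuclear actin does to transcription. The 3 mutant libraries came from females with the RanBP9 allele D1 over the deficiency BSC469, and the 3 control libraries from females with a w1118 chromosome over BSC469, so both groups carry the deficiency. RanBP9 is now called Ipo9 and encodes Importin-9, a transport receptor that carries actin into the nucleus. Flies were kept at 25 °C; the labels used here state neither their age nor whether replicates came from separate crosses, so the spread between libraries may be technical.

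Germline stem cells at the tip of the ovariole receive the signal Dpp from neighbouring somatic cells, and this signal keeps bam silent. A daughter cell that leaves the tip switches bam on, and the Bam protein, together with its partner Bgcn, drives it to divide as a cyst and differentiate. Sxl, ovo and otu give the germline its female identity and are needed for this step, mei-P26 restrains growth and division of the dividing cyst, and stwl keeps the stem cells from being lost. The gene tut is known from the testis, where its RNA-binding protein works with Bam and Bgcn to hold down mei-P26.

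Of these genes tut differed most between the groups, and it was lower in mutant ovaries. Beside it, bam was modestly lower and stwl modestly higher, while mei-P26 and ovo were nearly level. The genes were chosen by their role in this step, with the mutant-over-control fold changes of these same counts already known, so their fold changes and calls describe these libraries and are no independent test. A gene is named as called when its adjusted p was under 0.05 by the quasi-likelihood F test of edgeR, with p-values adjusted over all 8110 genes by the Benjamini-Hochberg method. By that rule 3 of the 8 were called, 1 higher (stwl) and 2 lower (tut and bam), and 5 were not. Over all genes tested 14.5% were called, 8.31% higher and 6.2% lower in the mutant. The groups did not overlap for 6 of the 8, and for 34.9% of all genes. The median log2 fold change was −0.01 over the 8 genes and −0.003 over all genes. In whole ovaries, fewer cells that express a gene and less RNA per cell cannot be told apart.

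**Figure D1:**
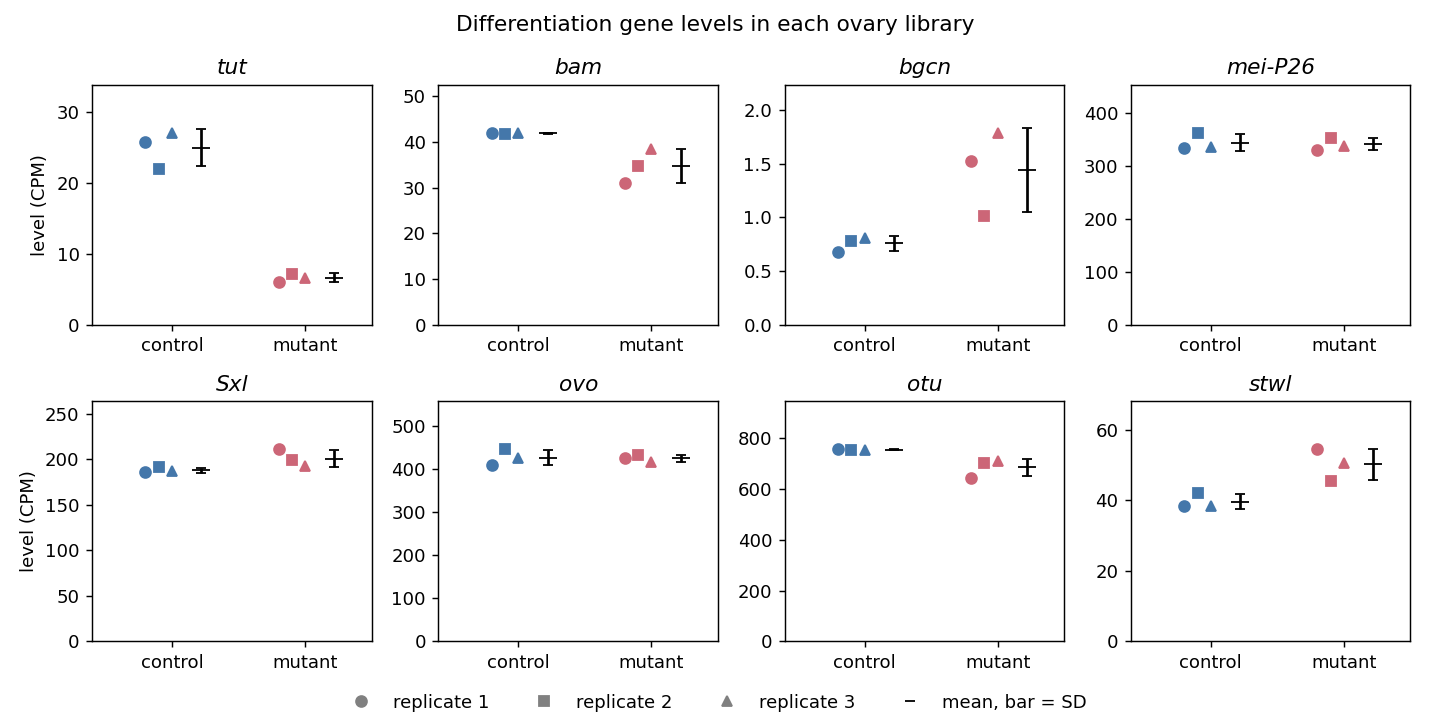
Level of each of the 8 genes in each library, in CPM (each count as a rate per library size, with composition scaling), with symbols for replicates and the mean with its SD (n = 3) in black; each panel starts at 0 and has its own scale. The mutant tut libraries lie at 5.98 to 7.22 CPM and the control libraries at 22.0 to 27.1, whereas the groups overlap for mei-P26 and ovo.

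Values per library are given throughout in the order of replicates 1, 2 and 3. The libraries held 21583524 to 26483578 counted reads. Ipo9 was at 98.3, 91.1 and 92.0 CPM in the mutant libraries and 118, 155 and 116 CPM in the control libraries, −0.47 (SE 0.12) as a log2 fold change with an adjusted p of 0.0544, so its mRNA was present in every mutant library and the second control library stood high. On the principal components of log2 CPM, mutant replicate 2 stood apart at −26.1 on the second, with the other 5 libraries at 0.69 to 10.8. The ovarian germline markers vas, osk, nos, grk and orb were present in every library. BicC had at most 1 count, but it shares exon sequence with another gene on the same strand, so that value is no sign of absence. The summed level of the 6 germline markers was 3176 to 3394 CPM in mutant and 3165 to 3353 in control libraries, and that of 7 follicle cell markers was 8829 to 10600 against 11550 to 13610, so the follicle sum was lower in each mutant library. Most of that sum and of its difference came from eggshell genes, with Cp36 at 3430 ± 227 CPM in mutant and 5133 ± 757 in control libraries, Vm26Aa at 2360 ± 212 and 3008 ± 341, and Vm26Ab at 950.3 ± 112 and 1313 ± 129. The follicle cell transcription factors tj, br and slbo had log2 fold changes of 0.25 (SE 0.17), 0.35 (SE 0.15) and 0.02 (SE 0.32) and the yolk protein gene Yp1 −0.08 (SE 0.10), none of them called. Muscle markers summed to 108 to 197 CPM in mutant and 96.4 to 167 in control libraries, and hemocyte markers to 8.79 to 26 and 5.98 to 13.1. Both ranges overlap between the groups. The part of these differences in the results was not tested.

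The gene tut (FBgn0052364) is a protein-coding gene with 1 annotated transcript of 1046 bases, at 8209577 to 8210743 on the minus strand of chromosome arm 3L in the BDGP6 (dm6) build. It had 153, 157 and 149 counts in the mutant libraries and 687, 479 and 636 in the control libraries. As scaled levels these were 5.98, 7.22 and 6.65 CPM in mutant and 25.8, 22.0 and 27.1 CPM in control libraries. All mutant libraries lay far below all control libraries, and the highest mutant library was well under the lowest control. The mean CPM of the mutant group was 6.62 ± 0.620 and that of the control group 25.0 ± 2.63 (SD, n = 3 each), a log2 fold change of −1.92 (SE 0.11), or 3.79-fold lower. Among the called genes of the series this was the fall of rank 39 by size, and 1.05% of all tested genes were called and lower by a fold of at least 2. The log2 fold change of tut stayed between −2.00 and −1.85 when any single library was left out, and the gene was called each time.

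The gene bam (FBgn0000158), the switch for differentiation, lies at 25243039 to 25245057 on the minus strand of 3R, and has 1 transcript. Its level was 31.0, 34.8 and 38.5 CPM in the mutant libraries and 42.0, 41.7 and 42.0 CPM in the control libraries. All 3 mutant values were under the lowest control value, and the controls were nearly identical. The means were 34.8 ± 3.71 and 41.9 ± 0.164 CPM, a log2 fold change of −0.27 (SE 0.07). The control libraries differed by a coefficient of variation of 0.393%, less than the 3.16% that counting alone gives at their depth, so their closeness is finer than these counts can resolve. The call of bam did not hold without mutant replicate 1 (−0.19), mutant replicate 2 (−0.27) or control replicate 1, 2 or 3 (each −0.27). The overlapping gene CG11854, on the opposite strand, had 0 or 1 count in each library.

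The gene bgcn (FBgn0004581), whose product is related to RNA helicases and binds Bam, lies at 23853270 to 23858921 on the minus strand of 2R. It was the scarcest of the 8, with 39, 22 and 40 counts in the mutant libraries and 18, 17 and 19 in the control libraries. These counts equal 1.53, 1.01 and 1.78 CPM in mutant and 0.677, 0.782 and 0.809 CPM in control libraries. The mutant libraries were all above the controls, with mutant replicate 2 the nearest to them. The log2 fold change was 0.94 (SE 0.31) and bgcn was not called. At about this depth counting error alone gives a coefficient of variation of 17.2% in the mutant and 23.6% in the control group, against 27.3% and 9.21% observed. The gene Pym lies inside bgcn on the same strand, with 1080 to 1372 counts a library; no annotated exons of the pair overlap, and the share of bgcn reads that could come from unspliced Pym RNA was not tested.

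Set against each other per kilobase of exon, tut and bam were at similar levels in control ovaries and not in mutant ovaries. The level of tut divided by that of bam was 1.15, 0.983 and 1.20 in the controls, against 0.359, 0.386 and 0.322 in the mutants. The same ratio of bgcn to bam was 0.00755, 0.00877 and 0.00901 in control libraries and 0.0230, 0.0136 and 0.0217 in mutant libraries. So the mRNAs of the testis trio stood in different proportions in the groups, with less tut and more bgcn per bam in each mutant library. The bgcn ratio rests on 17 to 40 bgcn counts a library, and bgcn was not called. These ratios restate the levels above and are not further support for them.

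The gene mei-P26 (FBgn0026206) encodes a TRIM-NHL protein, of the family of the growth regulator Brat. It lies at 9163255 to 9189309 of X, on the plus strand. Its level was 331, 353 and 338 CPM in the mutant libraries and 334, 362 and 335 CPM in the control libraries, so the groups interleaved. The log2 fold change was −0.01 (SE 0.05), not called, with means of 340.5 ± 11.3 and 344 ± 15.9 CPM. Its direction was not stable, with values from −0.040 to 0.025 on the log2 scale when single libraries were left out. The mRNA level of mei-P26, the known target of Tut in the testis, was about the same in ovaries with 25.0 and with 6.62 CPM of tut. These counts do not measure Mei-P26 protein, so whether Tut acts on mei-P26 in these ovaries was not tested.

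Among the genes of female germline identity, differences were small. Sxl (FBgn0264270), the RNA-binding switch of sex determination, lies at 7074550 to 7098056 on the minus strand of X and has 25 annotated transcripts. It was at 211, 199 and 192 CPM in the mutant libraries and 186, 191 and 187 CPM in the control libraries. The groups just failed to overlap, and the log2 fold change was 0.09 (SE 0.04), not called. The counts are summed per gene, so male-type and female-type splicing of Sxl cannot be read from them. The microRNA gene mir-4956 lies within an exon of Sxl on the same strand and had 0 counts.

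The gene ovo (FBgn0003028), a zinc finger transcription factor that switches on otu, lies at 5048273 to 5070929 on the plus strand of X. Its level was 425, 432 and 416 CPM in mutant and 409, 445 and 425 CPM in the control libraries. The control libraries spread further than the mutant libraries and enclosed them, and the log2 fold change was −0.01 (SE 0.04). The gene otu (FBgn0003023), an OTU-type deubiquitinase, lies at 8485008 to 8489535 on the minus strand of X and was the most abundant of the 8. It was at 645, 702 and 710 CPM in the mutant libraries and at 757, 756 and 753 CPM in the control libraries. All mutant libraries were below all controls, with a log2 fold change of −0.14 (SE 0.04) that was not called by edgeR but was by DESeq2 at the same size (−0.14), and by edgeR without mutant replicate 3 (−0.16). The control coefficient of variation of otu was 0.256%, again below that of counting alone (0.744%). Per kilobase of exon, ovo stood at 0.305, 0.285 and 0.271 of otu in mutant libraries and at 0.250, 0.272 and 0.261 in control libraries, so these ratios overlap. On the opposite strand ovo overlaps the RNA gene CR44833, with 182 to 244 counts, and otu overlaps CG33181, with 3144 to 3688 counts. These are overlaps of whole genes, introns included, and exon overlap of these pairs is not given here. Whether the counting used strand is not stated, so reads from any shared exon sequence may not be told apart.

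The gene stwl (FBgn0003459), a chromatin protein with a MADF domain, lies at 14402930 to 14409939 on the minus strand of 3L. Its level was 54.5, 45.6 and 50.8 CPM in the mutant libraries and 38.5, 42.2 and 38.3 CPM in the control libraries. Every mutant library was above every control, the closest pair being the replicates numbered 2. The mean rose from 39.7 ± 2.21 to 50.3 ± 4.46 CPM, a log2 fold change of 0.34 (SE 0.07), or 1.27-fold. The call of stwl did not hold without control replicate 1 or control replicate 3, where the log2 fold change was 0.32.

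**Figure D2:**
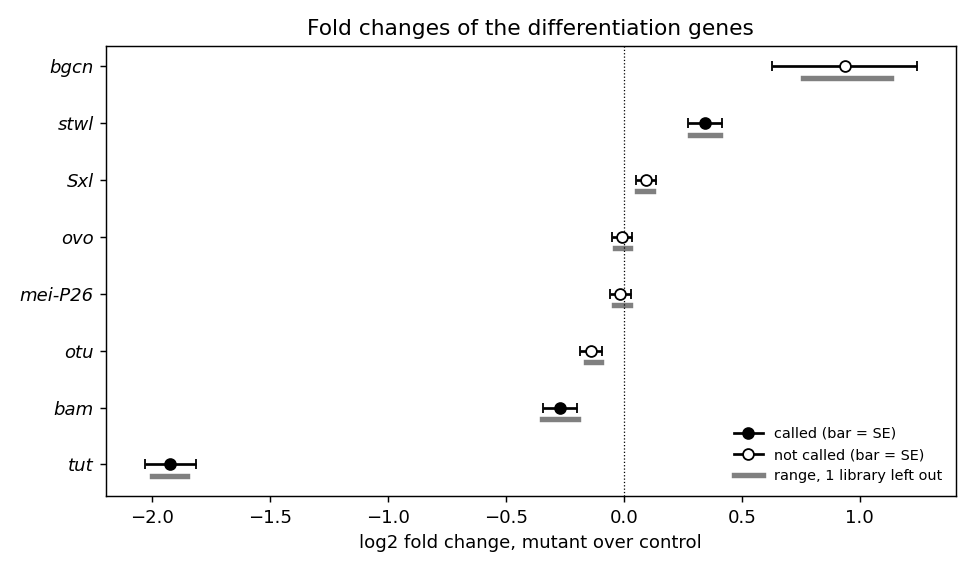
Log2 fold change of each gene, mutant over control, with its standard error; filled points are called genes and grey lines span the values with each library left out in turn. tut stands apart at −1.92, bgcn has the widest error (0.31), and ovo and mei-P26 sit on 0.

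The order of levels was read per length, as CPM per kilobase of the union of annotated exons. In control ovaries otu was at 221 ± 0.564, ovo at 57.6 ± 2.47, tut at 23.9 ± 2.52, bam at 21.5 ± 0.0845, Sxl at 20.5 ± 0.310, mei-P26 at 14.8 ± 0.683, stwl at 9.16 ± 0.510 and bgcn at 0.182 ± 0.0168 CPM per kilobase (SD, n = 3). The neighbours tut and bam differed by less than the SD of tut, and the other neighbouring pairs by more than their SDs. From otu to bgcn the control levels spanned a factor of 1214. In mutant ovaries tut, at 6.33 ± 0.593 CPM per kilobase, came after stwl at 11.6 ± 1.03, and above bgcn at 0.346 ± 0.0946. Among all tested genes, control otu was at percentile 96.4 and bgcn at percentile 2.44 of levels per length. The places of Sxl and mei-P26 depend on which transcripts the ovary uses. With the longest transcript as the length, the level of Sxl was 31.5 CPM per kilobase, above tut and bam. With the shortest transcript, tried once the values were known, Sxl was at 124 and mei-P26 at 69.2.

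**Figure D3:**
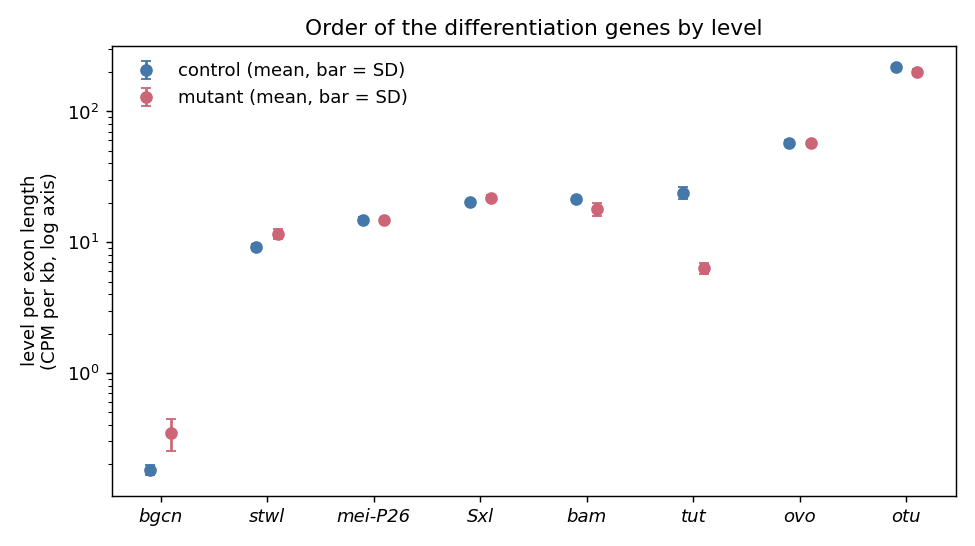
Level of each gene per kilobase of exon in control and mutant ovaries on a log axis, as mean with SD (n = 3), ordered by the control level. tut moves from 23.9 to 6.33 CPM per kilobase, from beside bam to below stwl, and bgcn lies far below the rest at 0.182 and 0.346.

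By position, the 3 called genes all lie on chromosome 3, which also carries Ipo9, and the 4 genes on X and the 1 on 2R were not called. Over all tested genes 15.2% were called on chromosome 3, 14.9% on chromosome 2 and 12.2% on X. The mutant and control females differ in the origin of 1 copy of chromosome 3, so the Ipo9 allele and other differences of that chromosome cannot be told apart in this design. The labels do not say how alike the other chromosomes of the groups are. On 3R, bam starts 13.8 Mb from Ipo9, while tut and stwl are on the other arm, 6.19 Mb apart.

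Close to tut lies another of the large falls of the series. Dscam4, a gene of the Dscam family of cell adhesion molecules, is on the plus strand and starts 27.9 kb past the higher coordinate of tut. That coordinate is where tut, on the minus strand, begins, so Dscam4 lies upstream of tut. Dscam4 fell from 16.2 ± 2.35 to 0.963 ± 0.316 CPM, a log2 fold change of −4.06 (SE 0.21, edgeR adjusted p = 7.35e-06). This was the fall of rank 8 among called genes. Between Dhps, the nearest tested gene on the other side, and Dscam4 the tables list 9 genes besides tut, of which 8 were set aside as too low, with at most 7 counts in a library. The remaining one, CG8012, had a log2 fold change of 0.05 (SE 0.34). Of the 32 tested genes within 100 kb of tut, 5 were called (15.6%), 4 lower and 1 higher, close to the 14.5% of all genes, with a median log2 fold change of −0.06. Atg18a, an autophagy gene on the far side of Dhps, fell by 0.36 (SE 0.04, adjusted p = 5.57e-04), from 84.3 ± 2.48 to 65.6 ± 1.14 CPM. The genes tut and Dscam4 thus lie close together on 3L, in a stretch where most tested genes were not called. The neighbours were looked up after the values of tut had been seen.

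**Figure D4:**
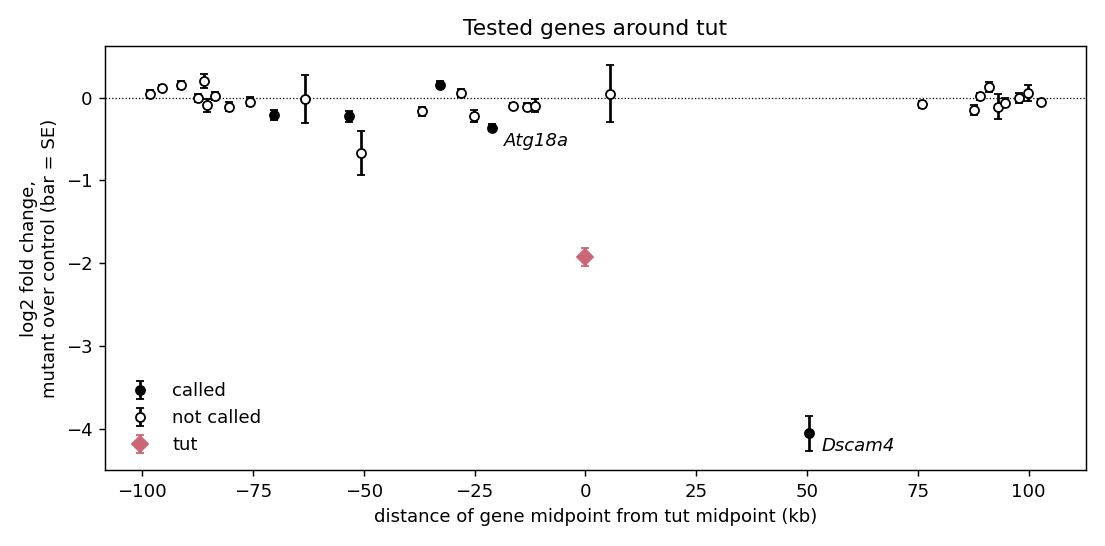
Log2 fold change, with its standard error, of each tested gene within 100 kb of tut, by the distance of its midpoint from that of tut. Dscam4 at −4.06 and tut at −1.92 stand below all others, and the next called fall on this scale is Atg18a at −0.36.

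Around the other genes, the 4 nearest tested genes on each side were taken. Over all 8 genes, 11 of 64 such neighbours were called, or 17.2% against 14.5% of all tested genes, a share near the background. Those of otu include the chorion genes Cp36 and Cp38 of the eggshell gene cluster on X, with midpoints 7.35 and 4.70 kb from that of otu. Both fell, Cp36 by 0.58 (SE 0.11, adjusted p = 0.0201) and Cp38 by 0.61 (SE 0.11, adjusted p = 0.0154) on the log2 scale, each further than the 0.14 by which the log2 level of otu was lower. Cp36 also made up the largest share of the lower sum of follicle cell markers given above. The called neighbours of ovo were CG3323, which rose from 0.972 ± 0.235 to 4.96 ± 0.847 CPM (log2 fold change 2.36, SE 0.25, adjusted p = 3.94e-04) with its midpoint 245 kb away, and CG44774, which fell by 0.48 (SE 0.05, adjusted p = 4.38e-04). Near stwl, the receptor gene fz fell by 0.56 (SE 0.04, adjusted p = 5.47e-05). Near bam, bgcn and mei-P26 the called neighbours all rose, namely RpS27 (0.21), eIF6 (0.16) and CG12056 (0.36), with adjusted p of 0.0226, 0.0309 and 0.0485.

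The 5 tested genes whose log2 CPM profile over the 6 libraries was most like that of tut were Dred, CG6656, Sdic3, CG11594 and CG12896, with root mean square differences of 0.211 to 0.228 in log2 units after centring. They lie on 3L, 3R, X, 3L and 2R, and their control levels were 2.29 to 7.69 CPM, below the 25.0 of tut. Sdic3 belongs to a cluster of near-identical copies, so its value is uncertain.

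Other genes were taken from 8 lists, of which the 8 genes above are not part. Besides genes of the pathway, these lists hold testis-type genes and genes of somatic germarium and niche cells. Of 94 tested genes in them, 6 were higher, 6 lower and 82 not called, or 12.8% called against 14.5% of all genes, with a median log2 fold change of −0.03. In the list of the Dpp signal, Dad, an inhibitor that Dpp itself induces, rose from 18.8 ± 0.659 to 43.5 ± 1.64 CPM (log2 fold change 1.21, SE 0.06, adjusted p = 7.35e-06), and the other 11 of its 12 tested genes were not called, with a list median of 0.07. Among those, dpp was at 0.41 (SE 0.23), the receptor gene tkv at 0.09 (SE 0.04), and the transducers Mad and Med at −0.02 (SE 0.05) and −0.13 (SE 0.04). In the same libraries bam, which Dpp keeps silent, was 0.27 lower and Dad 1.21 higher on the log2 scale, and a link between them was not tested. Dad, like bam, lies on 3R, the arm of Ipo9, so the limit given above for chromosome 3 applies to both genes.

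Of 15 genes of stem cell maintenance and translational repression, 2 were higher and 1 lower, with a median log2 fold change of −0.05. pelo, a gene of ribosome rescue, rose from 102 ± 0.574 to 121 ± 3.07 CPM (0.25, SE 0.04, adjusted p = 0.00289), and fs(1)Yb, a piRNA factor of the somatic cells, from 3.28 ± 0.164 to 5.11 ± 0.840 CPM (0.64, SE 0.18, adjusted p = 0.0406). vas, a germline RNA helicase, fell from 431 ± 12 to 386 ± 11.8 CPM (−0.16, SE 0.04, adjusted p = 0.0292). The repressors nos and pum were at −0.11 and −0.09 (SE 0.04 each), not called. Of 14 genes of cyst differentiation, 0 were higher and 2 lower, with a median of −0.07. These were egl, an adaptor for mRNA transport (−0.22, SE 0.04, adjusted p = 0.0111), and alpha-Spec, a protein of the fusome that links cyst cells (−0.24, SE 0.05, adjusted p = 0.0123), which shares exon sequence with dlt on the same strand and is uncertain. The RNA-binding factors Rbfox1 and bru1 were at −0.06 (SE 0.05) and −0.06 (SE 0.04).

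Of the 15 splicing and m6A cofactors of Sxl, 0 were called by edgeR, 0 by DESeq2 and 0 by limma-voom, with a median of −0.07, while 4 had an unadjusted p under 0.05 in edgeR. snf, a spliceosome protein that acts with Sxl, was at 75.4 ± 5.44 CPM in mutant and 79.0 ± 3.39 CPM in control ovaries. Of 12 germline chromatin regulators, bon, a TRIM-type cofactor, was lower (−0.14, SE 0.04, adjusted p = 0.0341) and 0 were higher, with a median of −0.06. Phf7, a gene whose male form is silenced in the female germline, was at −0.08 (SE 0.06). Of 10 tested maternal and oocyte genes, grk, which codes for the signal from oocyte to follicle, rose by 0.27 (SE 0.07, adjusted p = 0.0362) and vas fell, with a median of −0.01. Of 12 tested genes of somatic germarium and niche cells, LamC, a lamin gene, fell by 0.48 (SE 0.07, adjusted p = 0.00281) and 0 rose, with a median of 0.04.

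Because tut is known from the testis, 20 testis-type genes were read as well. Of the 20, 14 were set aside as too low, 8 were at 0 in all libraries (sa, nht, comr, wuc, dj, Mst84Da, Mst84Dd and ocn), and 16 were under 1 CPM in every library. Of the 6 tested, 2 were higher, 1 lower and 3 not called, with a median log2 fold change of 0.41. That is 50% called against 14.5% of all genes, over no more than 6 genes. Of these, betaTub85D and Taf12L (listed as rye) passed the count filter only with their mutant libraries. The filter thus in part sets this share and this median, which describe these libraries only. bol, a translation factor of meiosis, rose from 17.4 ± 1.73 to 25.6 ± 2.89 CPM (0.56, SE 0.10, adjusted p = 0.006). betaTub85D, the testis tubulin, rose from 0.278 ± 0.0568 to 0.739 ± 0.110 CPM (1.42, SE 0.36, adjusted p = 0.0284), a low level in both groups. It had 22, 14 and 16 counts in the mutant libraries and 7, 5 and 8 in the control libraries. Having passed the filter through the mutant group alone, its direction is not independent of that filter. twe, a Cdc25 phosphatase of meiosis, fell by 0.23 (SE 0.05, adjusted p = 0.0189), from 135 ± 2.37 to 116 ± 8.25 CPM. At percentile 81.5 of control levels per length it was well expressed in these ovaries, so it is no marker of testis here. The summed level of the 9 testis markers was 25.6 to 30.9 CPM in mutant and 18.9 to 21.0 CPM in control libraries, most of it from bol, and all 20 genes summed to 143 to 155 CPM and 155 to 163 CPM, most of it from twe. The part of this in the level of tut was not tested.

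The calls of vas, fs(1)Yb, bon, grk, twe and betaTub85D did not hold in every fit with 1 library left out. Each ended without mutant replicate 1, without mutant replicate 2 and without control replicate 1. Those of vas, fs(1)Yb, bon and betaTub85D ended without control replicate 2, and those of vas, fs(1)Yb, grk, twe and betaTub85D without control replicate 3. The highest adjusted p in these edgeR fits was 0.137 for vas, 0.151 for fs(1)Yb, 0.137 for bon, 0.151 for grk, 0.0802 for twe and 0.107 for betaTub85D. With all libraries kept, DESeq2 did not call fs(1)Yb (adjusted p = 0.0522), grk (0.08) or betaTub85D (0.151), edgeR without a composition factor did not call bon (0.0632), and edgeR with a filter on no more than a total of 1 count did not call fs(1)Yb (0.054). The calls of pelo, egl, alpha-Spec, Dad, bol and LamC held without any single library, with adjusted p of at most 0.0458.

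**Figure D5:**
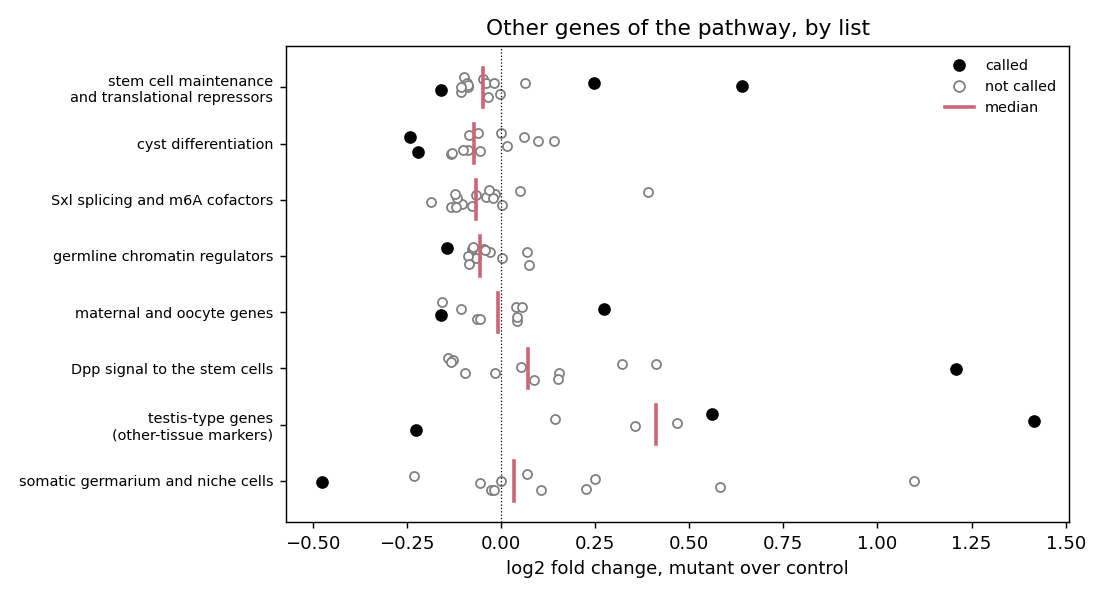
Log2 fold change of each tested gene of the 8 lists, mutant over control; filled points are called genes and red lines list medians. Most genes lie near 0, Dad at 1.21 stands apart in the Dpp list, and the testis-type list has 6 tested genes of 20.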

How the data were processed

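Each of the 6 libraries has a deposited table of unnormalized read counts for the same genes. The submitters' processing notes name the tools TopHat2, HTSeq and DESeq2 and the builds dm6 and BDGP6, and the strand setting and tool versions are not given. Per the labels' protocols, RNA came from a TRIzol extraction and the library kit, NEBNext Ultra II, keeps strand. Symbols came from the Ensembl release 115 annotation of BDGP6 by gene ID (17253 genes) or by position (213 genes, each interval covering at least 90% of the other), and starts are given 1-based.

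The filterByExpr function, set to a minimum count of 10, kept 8110 genes and set 9449 aside. Counts were scaled with TMM factors and fitted with edgeR 4.0.16 (R 4.3.3), mutant against control without covariates, with Benjamini-Hochberg adjustment and a threshold of 0.05. Fold changes are log2, mutant over control. CPM uses the TMM-scaled library sizes, and CPM per kilobase divides it by exon length; lengths of isoforms in use are unknown. Profiles used log2 CPM with a prior count of 2. As alternatives, DESeq2 1.42.0, limma-voom (limma 3.58.1), library scaling by relative log expression or by total count alone, 2 other filters, a replicate block and leaving out each library were run; a fit without both libraries numbered 2, and the shortest transcript as length, were added after the data were seen. The fit was also run on simulated counts with known fold changes, drawn with dispersions estimated from these same libraries. That run checks the code only and not how well the model describes these libraries. The genes and lists were chosen with earlier results of these data known. Called genes of each list, at most 4 by smallest p, were named; Dscam4, Atg18a and the neighbours of other genes were picked once their values were known. The listed nos, flacc and rye were read under their current symbols nanos, Flacc and Taf12L. No molecular identifiers are described, so counting errors cover counting only. No sequence was used here.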

Additional observations from a re-analysis of the deposited data

How the results depend on the processing

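Of the 8 genes, 3 were called in the fit reported. Across the fits without 1 library each, 1 to 4 were called, with 1 (tut) without control replicate 1 or without control replicate 3. The direction of mei-P26 and ovo, neither called, turned with the libraries, from −0.04 to 0.025 for mei-P26 and from −0.036 to 0.028 for ovo on the log2 scale, and to 0.013 for ovo without both libraries numbered 2. Calls over all genes, 1177 in the fit reported, ranged from 566 (without control replicate 1) to 1475 without 1 library, with 778 without mutant replicate 1, 739 without mutant replicate 2 and 775 without control replicate 3, and were 516 without both libraries numbered 2. Of the tested genes of the 8 lists, 12 were called, 6 to 16 without 1 library and 3 without both libraries numbered 2. With a replicate block 728 genes were called in all, and 7 genes of the lists, with vas, fs(1)Yb, bon, grk and betaTub85D losing their calls. In that fit 2 of the 8 genes were called, the call of bam being lost at −0.28 on the log2 scale. The deviations of same-numbered libraries from their group means had correlations of −0.23, −0.263 and −0.119. With 3 libraries a group these deviations are tied to each other, so they cannot decide whether the numbers pair libraries. The cause of these shifts was not tested. The directions of tut, bam, bgcn, Sxl, otu and stwl were the same in every alternative run. The value of bgcn rests on 17 to 40 counts a library. No value for betaTub85D could be had with the filter of at least 1 CPM in 3 libraries.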
